A study of Mus musculus with 6 samples.

Results

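The 10 genes of the E2F and DP transcription factor family were followed through RNA sequencing of mouse fetal liver with and without the microRNA locus miR-144/451. The genes are E2f1 to E2f8, Tfdp1 and Tfdp2, taken by symbol from the deposited gene table, in which they are 10 of 34542 genes. All 10 are also among the 15543 genes of the table of exon and intron counts, and all 10 passed the filter on low counts. Of them, 4 were lower in livers without the locus (E2f1, E2f2, E2f7 and E2f8), 0 were higher, and 6 did not pass the test. Over all tested genes 1.45% were lower and 1.83% higher. The 4 calls were lost when any single library except wild-type replicate 2 was left out.

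Polyadenylated RNA came from fetal liver cells of C57BL/6J embryos, with 3 wild-type (WT) libraries numbered 1 to 3 and 3 libraries of miR-144/451-/- embryos (KO) numbered 4 to 6. The same number of cells went into each RNA preparation. No label gives the embryonic age or says whether embryos were pooled. The p-values therefore measure only the spread between these samples, which may be technical. The KO embryos lack both microRNAs in every cell type, and the tissue was not sorted.

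E2F proteins bind DNA as partners of a DP protein (Tfdp1 or Tfdp2), and the atypical members E2F7 and E2F8 bind without one. E2F1, E2F2 and E2F3 activate genes for the G1 to S phase transition, E2F4 and E2F5 mostly repress them together with the pocket proteins RB, p107 and p130, and E2F6 represses through Polycomb-type complexes. E2F7 and E2F8 are themselves induced by E2F activators and repress the same genes later in S phase. In the fetal liver, where red cell precursors divide rapidly and then leave the cell cycle, E2F4 is needed for normal red cell formation, E2F2 takes part in the exit from the cell cycle during terminal maturation, and Tfdp2 is highly expressed in maturing erythroblasts.

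The mature microRNAs of the deleted locus are shown from RefSeq (build GRCm38.p6), 5′ to 3′, with the seed (bases 2 to 8) in capitals, because the seeds define the sites searched in the family. They lie on the plus strand of chromosome 11, and the seeds of the 3 differ.

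miR-144-3p (chr11:78073047-78073066): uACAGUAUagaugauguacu

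miR-144-5p (chr11:78073010-78073032): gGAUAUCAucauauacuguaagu

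miR-451a (chr11:78073186-78073207): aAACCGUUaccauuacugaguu

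Sites of 7 or 8 matching bases were searched in the longest 3′ untranslated region annotated for each member (GENCODE M21, GRCm38). No member had a miR-451a site (AACGGTT). By comparison, 1.95% of the 21173 genes with an annotated region carry it. A miR-144-3p site (ATACTGT) was present in 3 of the 10 members, E2f6, E2f8 and Tfdp2, and in 12.3% of all genes. A miR-144-5p site (TGATATC) was present in E2f2 alone, at 2 positions, and in 6.59% of all genes. The 5 sites are shown with their flanks, with the matching bases in capitals, including a following A where it makes an 8-base site.

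E2f8, miR-144-3p, 8 bases, position 91 of 618: caccacctttaacaATACTGTAaatattt

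E2f6, miR-144-3p, 7 bases, position 2131 of 2293: gtggacaaaaggatATACTGTgggacaca

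Tfdp2, miR-144-3p, 7 bases, position 4118 of 5675: agctacgcgcatttATACTGTctgttctg

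E2f2, miR-144-5p, 8 bases, position 163 of 3020: attcggctggggagTGATATCAgggctaa

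E2f2, miR-144-5p, 7 bases, position 2432 of 3020: ccagtgtcccctgcTGATATCcctgggga

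A match is a description of letters and not of binding. None of the 4 members that carry a site for either strand of miR-144 was higher in KO, and 2 of them, E2f2 and E2f8, were lower. No member without a site was higher either, and E2f1 and E2f7, which carry none, were also lower. Over all tested genes 1.45% were called lower and 1.83% higher, so these few members do not tell whether a site matters, which was not tested.

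Counts assigned to genes ran from 24659978 to 44700229 per library. The deleted genes were nearly absent from the KO libraries, with 29 to 51 counts of Mir144 in WT against 0 to 1 in KO and 323 to 446 counts of Mir451 in WT against 2 to 4. Levels below are CPM, counts per 1000000 of the TMM-scaled library (trimmed mean of M values), and adjusted p-values are from edgeR's quasi-likelihood test over 15105 genes with Benjamini-Hochberg adjustment, with a threshold of 0.05. The 20 erythroid markers were all above 0 in every library. Their mean log2 level was 10.20, 9.76 and 10.07 in WT and 9.58, 9.68 and 9.49 in KO, so that the groups did not overlap. Of these 20, 20 had a log2 change below 0, with a median of -0.47, beside 8331 of the 15105 tested genes. By edgeR 2 were called lower and 0 higher, 12 were lower at an unadjusted p under 0.05, DESeq2 called 11 lower, and 12 had KO values entirely below the WT values. Over all tested genes the shares lower by these 4 measures were 1.45%, 8.78%, 3.32% and 10.9%. The markers had summed levels of 29673 to 40983 CPM in WT and 23237 to 27147 CPM in KO. Fewer erythroid cells and less of these RNAs per cell cannot be told apart in bulk samples. The summed level of 20 hepatocyte markers varied more within groups, from 9213 to 59230 CPM in WT and from 13546 to 48471 CPM in KO, and was highest in WT replicate 2 and KO replicate 6. No hepatocyte marker was called, nor any of 10 macrophage, 8 megakaryocyte, 9 neutrophil, 7 endothelial and 8 stem and progenitor markers, by edgeR or DESeq2. At an unadjusted p under 0.05, 3 of the stem and progenitor markers were lower, and 0 of the hepatocyte, macrophage, megakaryocyte, neutrophil or endothelial markers passed in either direction. The 9 neutrophil markers all had a log2 change below 0, with a median of -0.57. Their summed level ran from 2190 to 3724 CPM in WT and from 1428 to 2865 CPM in KO, so the groups overlapped. The part of the erythroid and neutrophil marker levels in the changes of the family was not tested.

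**Figure D1:**
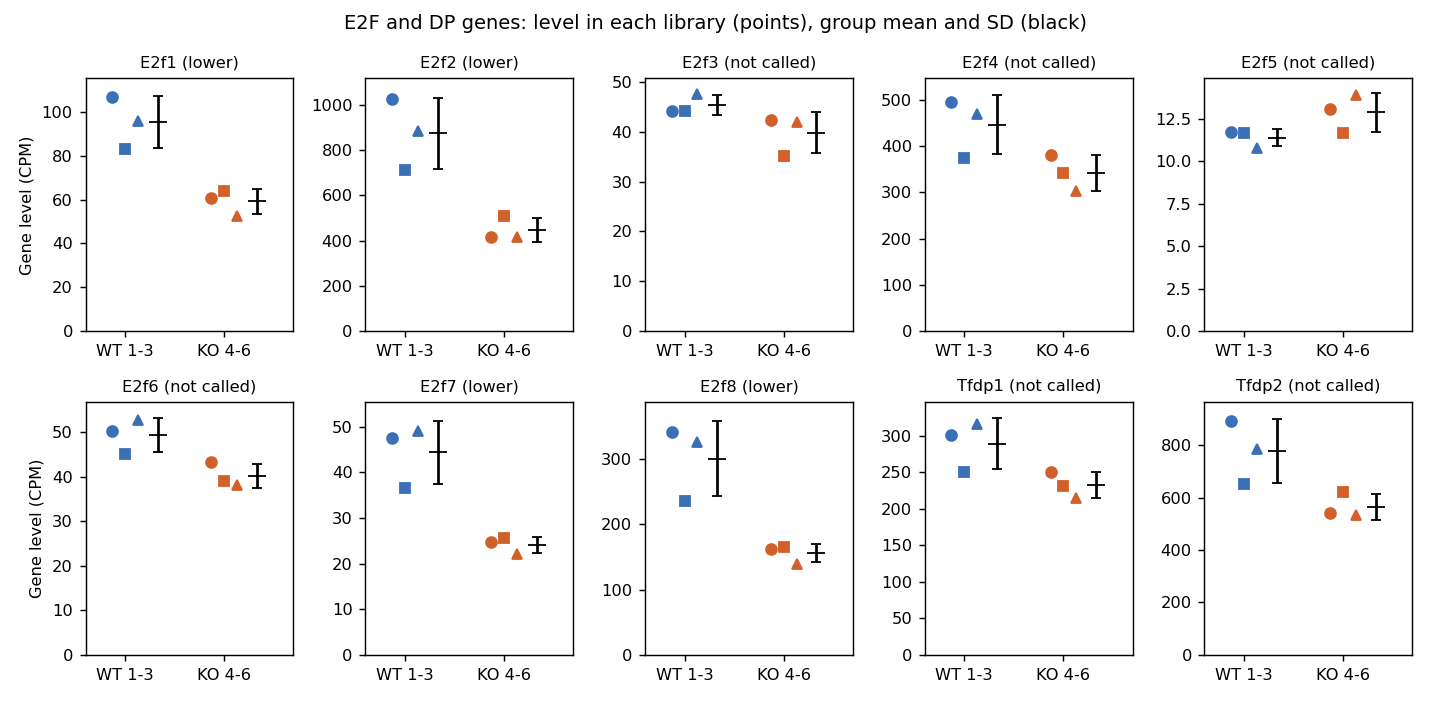
Level of each E2F and DP gene (CPM, vertical axes from 0) in the 3 WT libraries (blue) and the 3 KO libraries (orange), with circle, square and triangle for replicates 1, 2, 3 and 4, 5, 6 and the group mean and SD in black. The KO points of E2f1, E2f2, E2f7 and E2f8 lie well below the WT points, while those of E2f4, E2f5 and Tfdp1 overlap them.

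Among the activators, E2f2 had the largest log2 change, and it was also the largest of the 10 members with all 6 libraries. E2f2 (chr4:136172394-136196057, plus strand, GRCm38) measured 1027, 714 and 885 CPM in WT replicates 1 to 3 and 418, 507 and 417 CPM in KO replicates 4 to 6. The lowest WT library was 207 CPM above the highest KO library. The mean fell from 875 ± 157 to 447 ± 51.7 CPM (SD, n = 3 each), a decrease of 48.9% and a log2 change of -0.97 (SE 0.16, adjusted p = 0.0349, edgeR). E2f1 (chr2:154559407-154569892, minus strand), the activator best known for also inducing cell death genes, measured 107, 83.2 and 95.8 CPM in WT and 60.9, 64.0 and 52.7 CPM in KO. The groups did not overlap here either. E2f1 fell by 37.8%, from 95.2 ± 11.8 to 59.2 ± 5.82 CPM (log2 change -0.69 ± 0.12 SE, n = 3 each, with adjusted p = 0.0373 by edgeR). E2f3 (chr13:29906575-29986063, minus strand), the third activator, measured 44.2, 44.2 and 47.6 CPM in WT and 42.3, 35.0 and 42.0 CPM in KO. Its KO values lay just under the WT values, with a log2 change of -0.19 (SE 0.10) that did not pass the test (adjusted p = 0.431, edgeR). E2f3 overlaps the antisense gene Gm11365 on the opposite strand, and without a known strand setting of the counting their reads cannot be told apart.

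Both atypical repressors were lower in KO by about as much as E2f2. E2f8 (chr7:48866429-48881596, minus strand) measured 341, 235 and 326 CPM in WT and 163, 165 and 139 CPM in KO. Its 3 KO libraries differed little from each other, and its lowest WT library, replicate 2, stood 70.8 CPM above them. E2f8 fell by 48.3%, from 301 ± 57.0 to 156 ± 13.995 CPM (log2 change -0.95 ± 0.16 SE, n = 3 each, with adjusted p = 0.0327 by edgeR). E2f7 (chr10:110745439-110787384, plus strand) measured 47.6, 36.5 and 49.1 CPM in WT and 24.7, 25.6 and 22.2 CPM in KO. The mean of E2f7 fell by 45.6%, from 44.4 ± 6.90 to 24.1 ± 1.76 CPM (log2 change -0.88 ± 0.14 SE, n = 3 each, with adjusted p = 0.0288 by edgeR). The opposite strand holds a noncoding transcript at each gene, 1700020G17Rik at E2f7 and Gm2788 at E2f8. The ratio of E2f8 to E2f7 per kilobase was 11.2 ± 0.613 in WT and 10.7 ± 0.256 in KO, so the pair kept its proportion within the spread of the WT libraries.

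The repressors that work with pocket proteins, E2f4 and E2f5, did not pass the test, nor did E2f6. E2f4 (chr8:105297663-105305370, plus strand) measured 495, 375 and 469 CPM in WT and 381, 341 and 303 CPM in KO. WT replicate 2 fell within the KO range, so the groups overlapped. The log2 change of E2f4 was -0.39 (SE 0.14, unadjusted p = 0.0323, adjusted p = 0.243, edgeR). E2f5 (chr3:14578641-14606309, plus strand) was low throughout, at 11.7, 11.6 and 10.8 CPM in WT and 13.1, 11.6 and 13.9 CPM in KO. It was the only member with a log2 change above 0 (0.18 ± 0.12 SE on the log2 scale, adjusted p = 0.574 by edgeR), and it overlaps the protein-coding gene 1810022K09Rik on the opposite strand. E2f6 (chr12:16810963-16839742, plus strand) measured 50.3, 45.2 and 52.7 CPM in WT and 43.3, 39.0 and 38.2 CPM in KO. Its groups were separated by 1.92 CPM, with a log2 change of -0.30 (SE 0.09, adjusted p = 0.176, edgeR).

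Neither DP partner passed the test. Tfdp2 (chr9:96196275-96323646, plus strand) measured 894, 650 and 787 CPM in WT and 541, 620 and 532 CPM in KO, without overlap between groups. Its log2 change was -0.46 (SE 0.15, unadjusted p = 0.0172, adjusted p = 0.175, edgeR). Tfdp1 (chr8:13338751-13378448, plus strand) measured 302, 250 and 316 CPM in WT and 251, 232 and 215 CPM in KO, where KO replicate 4 and WT replicate 2 were nearly equal. Its log2 change was -0.31 (SE 0.12, adjusted p = 0.246, edgeR). A pseudogene, Gm28924, lies on the opposite strand within Tfdp2.

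Set against all genes, the share of lowered members was above the background, although the members were chosen with earlier results of these data known. Of 15105 tested genes 1.45% were called lower and 1.83% higher, beside 4 of 10 and 0 of 10 members. The KO values lay entirely below the WT values for 7 members (E2f1, E2f2, E2f3, E2f6, E2f7, E2f8 and Tfdp2), and for 10.9% of tested genes. At an unadjusted p under 0.05, 8 members were lower and 0 higher, against 8.78% of genes lower. DESeq2 called 4 members lower, the same E2f1, E2f2, E2f7 and E2f8, and 3.32% of genes. A raised share was not particular to the family. DESeq2 also called 11 of the 20 erythroid markers and 14 of 30 genes of G2 and mitosis lower. Of 3 pocket proteins, 9 partners of E2F6 and 6 tested cell death genes it called 0 lower. The median log2 change was -0.42 over the 10 members and -0.03 over all tested genes.

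The 4 calls depended on which libraries entered the fit. When any single library other than WT replicate 2 was left out, 0 of the 10 members were called, with adjusted p of 0.0612 to 0.155 for the 4 genes (edgeR). This holds for each of WT replicates 1 and 3 and of KO replicates 4, 5 and 6. Without WT replicate 2, the library of highest hepatocyte marker level, 7 were called lower, with E2f4 (-0.50), Tfdp1 (-0.41) and Tfdp2 (-0.57) added. Without both WT replicate 2 and KO replicate 6, an alternative added after the data were seen, 6 were called (E2f1, E2f2, E2f4, E2f7, E2f8 and Tfdp2). With that marker level entered as a covariate, 8 were called, all but E2f3 and E2f5. The calls over all genes moved in the same way. With all 6 libraries 219 were lower, without WT replicate 2 1012, without both libraries 838 and with the covariate 1296. Leaving out any other single library gave 7 to 44 lower.

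**Figure D2:**
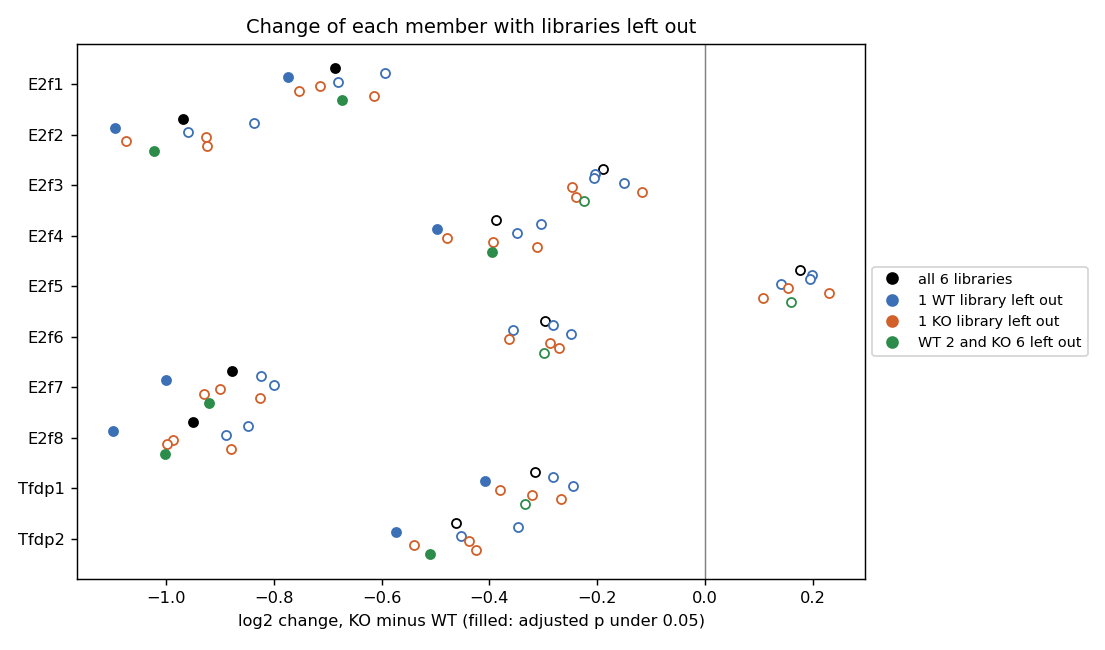
Log2 change (KO minus WT) of each member with all 6 libraries (black), with 1 WT (blue) or 1 KO (orange) library left out, and with WT replicate 2 and KO replicate 6 both left out (green), filled where the adjusted p was under 0.05 by edgeR. E2f2 ran from -1.10 to -0.84 and E2f8 from -1.10 to -0.85 with 1 library left out, and the filled blue points are fits without WT replicate 2.

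Relative to the summed level of the 20 erythroid markers in the same library, 4 members were lower in KO, as in CPM, and 6 had a KO mean above the WT mean. This scale was chosen after the data were seen, carries no test, and its denominator includes genes that were called lower. That denominator was 29673 to 40983 CPM in WT and 23237 to 27147 CPM in KO, so a gene of unchanged CPM rises on this scale. Direction and overlap were not computed for all genes on it and so have no background here. E2f2 stood at 25.05, 24.1 and 24.2 per 1000 of erythroid marker CPM in WT and at 17.1, 18.7 and 18.0 in KO, a decrease of 26.8%. E2f8 was 25.6%, E2f7 22.2% and E2f1 11.4% lower on this scale, each without overlap between groups. Tfdp2 measured 21.8, 21.9 and 21.5 in WT and 22.1, 22.8 and 22.9 in KO, with means of 21.7 ± 0.205 and 22.6 ± 0.451 (SD, n = 3 each). E2f4 (12.5 ± 0.384 to 13.7 ± 1.603), Tfdp1 (8.14 ± 0.690 to 9.35 ± 0.856), E2f3 (1.29 ± 0.205 to 1.61 ± 0.278) and E2f6 (1.40 ± 0.153 to 1.62 ± 0.166) also had KO means above the WT means, the opposite direction to their change in CPM. For these 4 the groups overlapped. E2f5 differed most on this scale, at 0.285, 0.392 and 0.295 in WT and 0.533, 0.429 and 0.597 in KO, a log2 ratio of the means of 0.68 without overlap between groups.

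Per kilobase of merged annotated exons, which allows genes to be set side by side, the WT order was E2f4 (182 ± 25.9 CPM per kilobase, SD, n = 3), E2f2 (179 ± 32.1), Tfdp1 (78.8 ± 9.50), Tfdp2 (55.4 ± 8.71), E2f8 (55.2 ± 10.5) and E2f1 (30.2 ± 3.73). E2f6 (8.72 ± 0.678), E2f3 (8.35 ± 0.365), E2f5 (6.38 ± 0.280) and E2f7 (4.93 ± 0.766) followed far behind. E2f4 and E2f2 did not differ beyond their spread in WT, nor did Tfdp2 and E2f8, nor E2f6 and E2f3. In KO the order of the leading 6 was the same, but the first pair moved apart, at 139 ± 15.9 for E2f4 and 91.6 ± 10.6 for E2f2, and E2f8 (28.6 ± 2.57) fell clear of Tfdp2 (40.2 ± 3.43). With the longest annotated transcript as the length, Tfdp2 (106 ± 16.6) and Tfdp1 (104 ± 12.5) were level in WT, so the order of the DP genes depends on the length used. E2f6 (16.4 ± 1.27) then stood clear of E2f3 (8.90 ± 0.389), E2f7 (8.11 ± 1.26) came before E2f5 (6.39 ± 0.280), and E2f8 (81.4 ± 15.4) kept the fifth place. E2f4 (224 ± 31.8) and E2f2 (185 ± 33.1) still overlapped within their SD in WT.

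The largest shifts in the make-up of the E2F transcripts, in percentage points, were a loss by E2f2 and a gain by E2f4. As a share of the summed level of E2f1 to E2f8 per kilobase, E2f2 made up 39.1%, 37.0% and 36.8% in WT and 27.1%, 32.8% and 31.0% in KO. E2f4 made up 37.6%, 38.7% and 38.9% in WT and 49.2%, 44.0% and 44.7% in KO. Neither pair of groups overlapped, and these shares do not depend on how libraries are scaled against each other, although their size depends on the gene lengths used. The ratio of E2f2 to E2f4 per kilobase was 0.981 ± 0.0514 in WT and 0.663 ± 0.101 in KO (SD, n = 3 each). E2f8 went from 11.6% ± 0.607 to 9.44% ± 0.144, whereas E2f1 kept nearly the same share, 6.38% ± 0.260 and 6.20% ± 0.190. The gain was not particular to E2f4. The mean shares of E2f3 (1.78% to 2.44%), E2f5 (1.37% to 2.40%) and E2f6 (1.85% to 2.35%) also rose, and that of E2f7 fell (1.04% to 0.886%). Summed per kilobase, E2f1 to E2f3 were 46.0% lower in KO, E2f7 with E2f8 48.1% lower, E2f4 with E2f5 22.3% lower and the 2 DP genes 22.8% lower. These sums are descriptions with no test.

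**Figure D3:**
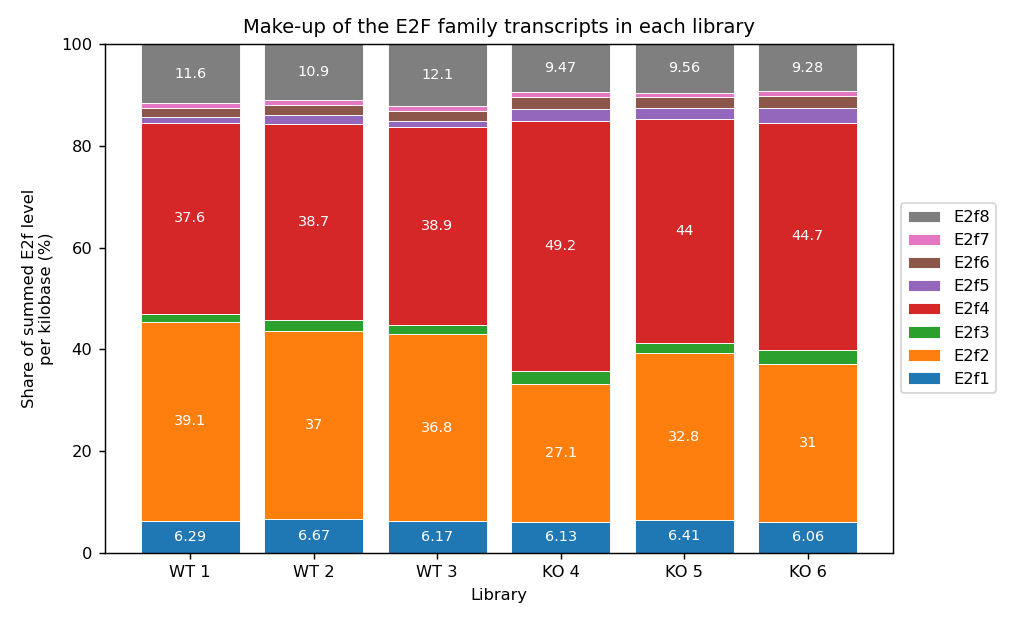
Share (%) of each E2f gene in the summed level of E2f1 to E2f8 per kilobase, 1 bar for each library, with shares above 5% printed. E2f2 and E2f4 are nearly equal in the WT bars, and E2f4 is the larger in every KO bar.

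Intron counts were read as following unspliced RNA, although the definition of an intron is not given. Their share of exon and intron counts ran from 16.9% in WT replicate 1 to 23.4% in WT replicate 3. The values of the 4 lowered genes took 2 forms, a contrast that did not pass a test. For E2f8 and E2f7 the introns were as low as the mature RNA. E2f8 introns measured 365, 378 and 284 CPM of intron counts in WT and 204, 170 and 184 in KO, a log2 change of -0.88 (SE 0.15, adjusted p = 0.0516, edgeR), just short of the threshold. E2f7 introns measured 93.6, 108 and 60.1 in WT and 46.1, 47.8 and 46.3 in KO (-0.90 ± 0.21 SE on the log2 scale, adjusted p = 0.143 by edgeR). For both genes the groups did not overlap. The introns of E2f2 overlapped between groups, at 1465, 1735 and 1053 in WT and 1006, 1258 and 851 in KO (-0.45 ± 0.23 SE on the log2 scale, adjusted p = 0.545 by edgeR). Those of E2f1 also overlapped, at 147, 186 and 163 in WT and 127, 159 and 131 in KO (-0.25 ± 0.14 SE on the log2 scale, adjusted p = 0.619 by edgeR). E2f4 introns, at 1001, 1071 and 911 in WT and 709, 680 and 633 in KO, were separated more widely than its mature RNA (-0.56 ± 0.13 SE on the log2 scale, adjusted p = 0.135 by edgeR).

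No member passed in intron counts with edgeR, where 0.483% of 11803 tested genes were called lower. At an unadjusted p under 0.05, 3 members were lower (E2f4, E2f7 and E2f8) and 0 higher, beside 5.45% of genes lower, and DESeq2 called these 3. Over all genes DESeq2 called 182 lower in intron counts, against 57 by edgeR. Leaving out WT replicate 3 brought E2f7 (-1.14, adjusted p = 0.0134) and E2f8 (-1.03, adjusted p = 0.0151) past the threshold by edgeR. In that fit 121 genes in all were called lower in intron counts. The difference between exonic and intronic change was -0.52 (SE 0.31, unadjusted p = 0.133) for E2f2 and -0.44 (SE 0.21, unadjusted p = 0.0694) for E2f1 in edgeR's interaction test. It was -0.01 (SE 0.31) for E2f7 and -0.06 (SE 0.25) for E2f8. The adjusted p was 0.99997 for each of the 10, and 0% of 11100 genes passed this test. No member had an unadjusted p under 0.05 in it, and DESeq2 called 0 members, so the contrast between the 2 forms is not shown to exceed the spread of the libraries.

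**Figure D4:**
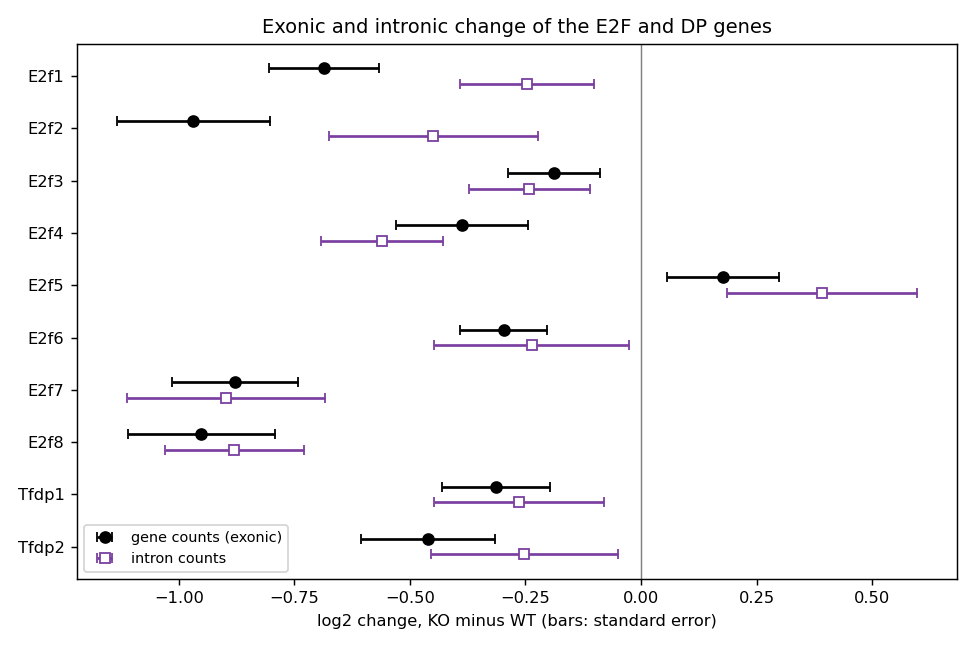
Log2 change (KO minus WT) of each member in gene counts (black circles) and in intron counts (purple squares), with bars of 1 standard error. The 2 symbols nearly coincide for E2f7 and E2f8 and stand apart for E2f2 (-0.97 and -0.45) and E2f1 (-0.69 and -0.25).

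The promoter windows of RefSeq (250 bases before to 50 after an annotated start, build GRCm38.p6) were searched on both strands for the E2F words TTTGGCGC, TTTCCCGC, TTTGCCGC and TTTCGCGC. Of the 8 members with a window, E2f2, E2f3, E2f7 and Tfdp1 held a word, and E2f1, E2f6, E2f8 and Tfdp2 held none. Of all 27025 genes with a window 2.61% held a word. Counted by window, it was 5 of 12 windows of the members and 2.26% of all 32851 windows. In E2f2 the word TTTGGCGC begins 39 bases after the start. The others are shown 5′ to 3′ along the gene's strand, with the word in capitals, because the family is known to act on its own promoters. The Tfdp1 stretch lies in 2 overlapping windows, and all 3 words read on the strand opposite to the gene.

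E2f3 (chr13:29986064-29986094, minus strand, word 11 bases before the start): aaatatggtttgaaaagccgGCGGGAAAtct

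E2f7 (chr10:110745221-110745268, plus strand, word 198 bases before the start): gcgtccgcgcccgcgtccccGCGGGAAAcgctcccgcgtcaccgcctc

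Tfdp1 (chr8:13338688-13338735, plus strand, word 43 or 96 bases before a start): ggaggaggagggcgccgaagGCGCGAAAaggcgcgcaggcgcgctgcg

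The word was present both in called members (E2f2, E2f7) and in members that did not pass (E2f3, Tfdp1). A match is not evidence of binding, and no match says only that these letters are not in the window.

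Around the family, 125 genes of 9 pathway lists were tested, of which 10 were called lower and 1 higher. Over all 15105 tested genes, 1.45% were called lower and 1.83% higher, and for 1785 the KO values lay entirely above the WT values. The pocket proteins, which hold E2Fs in check, were not among them. Rbl2, which encodes p130, measured 54.6, 40.7 and 53.3 CPM in WT and 67.2, 73.0 and 61.2 CPM in KO (log2 change 0.44 ± 0.13 SE, with adjusted p = 0.165 by edgeR). Rbl1 (p107) also lay above the WT range in every KO library (0.23, adjusted p = 0.389, edgeR), while Rb1 overlapped (0.04, adjusted p = 0.989, edgeR) and its sign changed in some alternatives. Of 8 genes of the MuvB core, MYB-type and FOXM1 partners, Foxm1, the G2 phase activator, fell from 119 ± 11.4 to 76.6 ± 4.16 CPM (log2 change -0.64 ± 0.09 SE, n = 3 each, with adjusted p = 0.0255 by edgeR). Mybl1 fell from 4.75 ± 0.260 to 2.30 ± 0.308 CPM (-1.04, adjusted p = 0.0327, edgeR), the other 6 did not pass, and the median of the list was -0.38.

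Of 10 G1 and S phase cyclins and kinases none was called, with 4 lower and 1 higher at an unadjusted p under 0.05 by edgeR, 2 called lower by DESeq2, and a median of -0.28. Over all 15105 tested genes, 1326 were lower and 1174 higher at that unadjusted p, and DESeq2 called 3.32% lower. The adjusted edgeR calls of this and the next lists stand beside 1.45% lower and 1.83% higher over all tested genes. Ccna2, the S and G2 phase cyclin, had a log2 change of -0.46 (adjusted p = 0.171, edgeR) and Ccnd3, the D cyclin most used by erythroid cells, -0.37 (adjusted p = 0.194, edgeR). Among 5 tested CDK inhibitors Cdkn2c, which encodes p18 and restrains CDK4 and CDK6, fell from 62.4 ± 10.04 to 23.8 ± 2.62 CPM (-1.39 ± 0.15 SE on the log2 scale, adjusted p = 0.0133 by edgeR, n = 3 each), and 4 did not pass (median -0.40). Of the 4 genes for ligase parts that turn over E2F proteins, Ccnf (cyclin F) fell from 259 ± 15.7 to 157 ± 8.52 CPM (-0.72 ± 0.08 SE on the log2 scale, adjusted p = 0.0160 by edgeR). Fzr1 (-0.58, adjusted p = 0.0998), Cks1b (-0.23, adjusted p = 0.359) and Skp2 (-0.01, adjusted p = 0.992, edgeR for all 3) did not pass. Among 9 partners of E2F6 in repressor complexes, Yaf2 rose from 22.5 ± 0.485 to 31.3 ± 1.06 CPM (0.48 ± 0.08 SE on the log2 scale, adjusted p = 0.0350 by edgeR) and 8 did not pass (median 0.04). Of the 11 calls in the 9 lists, all were lost when WT replicate 1, WT replicate 3, KO replicate 4 or KO replicate 5 was left out. Without KO replicate 6 those of Cdkn2c and Ccnf alone held, and with no filter on low counts those of Mybl1, Prc1 and Yaf2 were lost.

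Among genes known as targets of E2F at the G1 to S transition, 53 were tested. Of these, 2 were called lower and 0 higher (over all tested genes 1.45% lower and 1.83% higher), and 46 had a log2 change below 0, with a median of -0.20. Over all 15105 tested genes, 8331 were below 0 and the median was -0.03. Rrm2, the small subunit of ribonucleotide reductase, measured 1077, 718 and 991 CPM in WT and 488, 505 and 433 CPM in KO (log2 change -0.97 ± 0.17 SE, with adjusted p = 0.0390 by edgeR). Asf1b, a histone chaperone of replicating cells, fell from 195 ± 30.6 to 112 ± 8.03 CPM (-0.80 ± 0.13 SE on the log2 scale, adjusted p = 0.0315 by edgeR, n = 3 each). Of 30 genes of G2 and mitosis, 4 were called lower and 0 higher, with 27 below 0 and a median of -0.36. The 4 called were Kif23 (-0.73) and Prc1 (-0.64), which build the central spindle, Ube2c (-0.73), which serves the anaphase-promoting complex, and Cenpf (-0.80), a kinetochore protein. Of the 30, 18 were lower and 2 higher at an unadjusted p under 0.05 by edgeR, and DESeq2 called 14 lower and 1 higher. The KO values lay entirely below the WT values for 18 and entirely above for 2. For the 53 G1 to S targets these counts were 13 and 1, 5 and 0, and 8 and 0. Over all 15105 tested genes they were 1326 and 1174, 501 and 541, and 1651 and 1785. Of 6 tested cell death genes linked to E2F1 none was called in either direction by edgeR or DESeq2, and 0 had an unadjusted p under 0.05. Apaf1, which encodes the core of the apoptosome, overlapped between groups (0.03, adjusted p = 0.973, edgeR). Without both WT replicate 2 and KO replicate 6, 20 of the G1 to S targets and 18 of the G2 and mitosis genes were called lower. With 1 library left out both counts ran from 0 to 19, with 19 in each without WT replicate 2. Over all genes, 838 were called lower without both libraries and 1012 without WT replicate 2, against 219 with all 6.

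**Figure D5:**
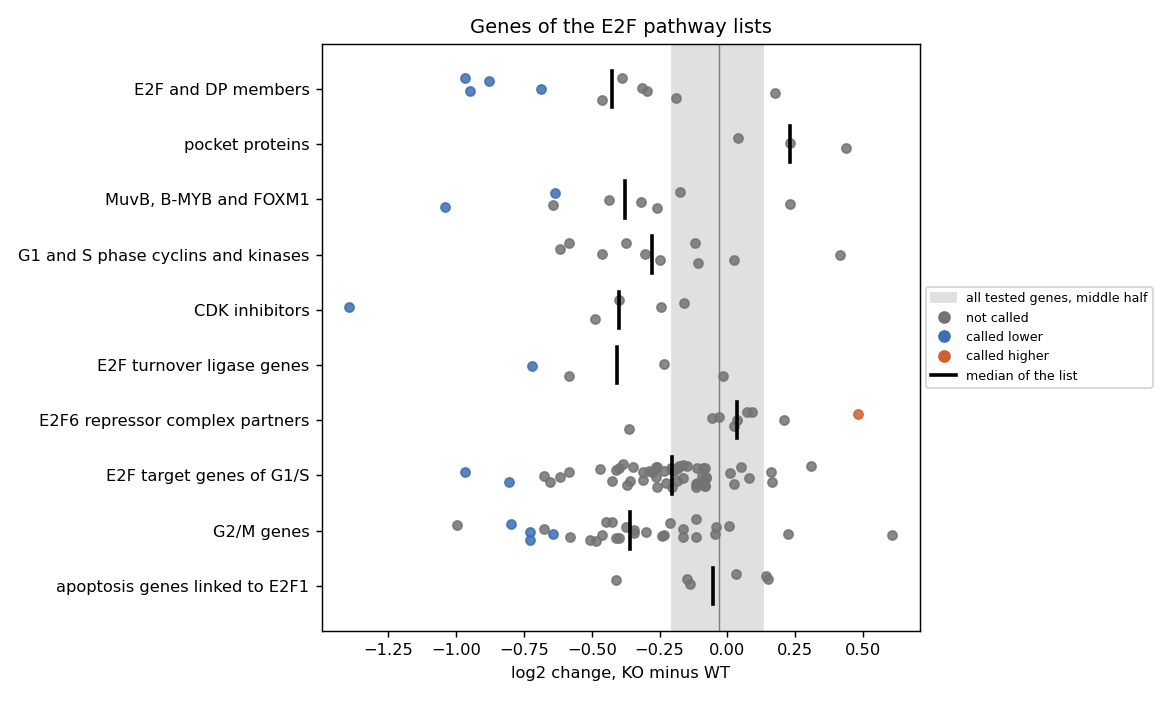
Log2 change (KO minus WT) of every tested gene of the E2F and DP family and of 9 pathway lists (points; blue called lower, orange called higher, grey not called, by edgeR), with the list median as a black bar and the middle part of all tested genes, from the lower to the upper quartile, shaded. The family median is -0.42, and the pocket proteins are the list whose tested genes all lie above 0.

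The genes whose level followed E2f2 most closely over the 6 libraries were Lbr, the lamin B receptor (Pearson r = 0.998 of log2 CPM), Vopp1 (r = 0.998) and Qk, an RNA-binding protein (r = 0.997). Lbr went from 700 to 404 CPM, Vopp1 from 252 to 125 CPM and Qk from 199 to 160 CPM between the group means. Within the family E2f1 ranked 89, E2f8 133, E2f7 161 and Tfdp2 252 in likeness to E2f2 among the 15104 other tested genes, while E2f4 ranked 1200. The closest to E2f4 were the gene model Gm6430, Paxip1 and Ap1ar (r from 0.997 to 0.9995), and among the members Tfdp1 (rank 108). These correlations are a description: the 6 points fall into 2 genotypes and share the same libraries and scaling.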

How the data were processed

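RNA sequencing of 6 fetal liver libraries was used. The authors deposited raw counts per gene symbol, and a table of exon counts and intron counts, whose exon counts equal the gene counts for all 15543 genes it lists. STAR and HTSeq and the builds NCBIM37 and mm10 are named in the submitters' processing notes. Versions, gene models, strandedness of the counting and the definition of an intron are not given in the sources here. The gene table's name says that it lacks globin and mitochondrial genes, and 0 such symbols were found in it.

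KO was compared with WT by edgeR 4.0.16 (R 4.3.3, TMM scaling, filterByExpr with minimum count 10 and minimum total 15, quasi-likelihood test, two-sided, Benjamini-Hochberg adjustment over all tested genes, threshold 0.05). Standard errors were derived from the F statistic. Exonic change was set against intronic change in 1 fit over 12 columns with a term per sample and separate scaling. DESeq2 1.42.0, limma-voom (limma 3.58.1), RLE scaling, no filter, a hepatocyte covariate, the exon table and libraries left out were alternatives. The tests were run on simulated counts with the same dispersion for all genes and no difference in cell composition between libraries. That setting differs from these libraries, so it checks the code and not the calls. Symbols were matched to GENCODE M21 (GRCm38), and coordinates are of that build. The labels mention no molecular identifiers, and counting error is only a part of the spread between libraries.

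The members and gene lists were chosen with earlier results of these data known. Besides the members, the text names up to 4 called genes of each pathway list by smallest p, the 2 of highest mean CPM in lists without a call, and all genes of lists of 4 or fewer. For E2f2 and E2f4 the 3 genes of highest correlation are named. The result of 1 gene that this rule names is not reported here.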

Additional observations from a re-analysis of the deposited data

How the results depend on the processing

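E2f1, E2f2, E2f7 and E2f8 kept their call under DESeq2, RLE scaling, limma-voom, no filter, the exon table, the hepatocyte covariate and the fit without both WT replicate 2 and KO replicate 6. They lost it when any library but WT replicate 2 was left out, and members called lower ran from 0 to 7 over these 6 fits. The hepatocyte covariate gave 8. Members lower in intron counts numbered 3 by DESeq2, 1 without the filter and 0 to 2 with a library left out.

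Over all genes, 276 were higher and 219 lower. DESeq2 gave 541 and 501, the hepatocyte covariate 1284 and 1296, the fit without both libraries 580 and 838, and 137 were lower in the exon table. Leaving out 1 library gave 5 to 483 higher and 7 to 1012 lower. In intron counts the 28 higher and 57 lower became 89 and 182 by DESeq2, 1 and 0 without both libraries, and 4 to 27 and 6 to 121 with a library left out. The exonic against intronic change gave 0 in each direction, 37 and 2 by DESeq2, 9 higher without the sample term, and 0 to 44 and 0 to 106 with a library left out. In the 9 pathway lists the 1 higher and 10 lower genes became 2 and 25 by DESeq2, 9 and 43 with the covariate, 3 and 48 without both libraries, and 0 to 2 and 0 to 49 with a library left out. Without the filter 0 were higher. The causes were not tested.

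Signs changed only for genes without a call. With a library left out Apaf1 ran from -0.031 to 0.12 (negative without KO replicate 5 or WT replicate 2), Rb1 from -0.14 to 0.19 (likewise) and Skp2 from -0.069 to 0.011 (positive without KO replicate 5 or WT replicate 3). Without both libraries they were at -0.010, -0.10 and 0.023, and Skp2 was at 0.024 without the filter. Relative to the erythroid markers the log2 ratio of means was 0.32 for E2f3, 0.13 for E2f4, 0.21 for E2f6, 0.20 for Tfdp1 and 0.056 for Tfdp2, against the direction in CPM, and 0.68 for E2f5, whose direction did not change. The summed erythroid markers were themselves lower in KO, which raises every gene on that scale. No scaling alternative moved the median of all genes by over 0.1. Each scaling assumes that most genes are unchanged, so this does not test the scaling. No paired analysis was possible because WT and KO libraries share no replicate number. Counting error weighs most on E2f5, the member with the fewest counts.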

Other observations

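The E2F words searched in promoters were common in the G1 to S target list and rare in the mitotic list. Of 41 target genes with a promoter window 19 held a word (46.3%), against 1 of 26 genes of G2 and mitosis (3.85%) and 2.61% of all 27025 genes with a window. Among the family it was 4 of 8 genes. The target list was put together from genes known to be bound by E2F, so its share is a description and no independent result.

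Mki67, the proliferation marker Ki-67, had the largest decrease of the mitotic list by log2 change, beyond the called genes, but was not called itself. It went from 6255 to 3136 CPM between the group means (-0.996 ± 0.21 SE on the log2 scale, n = 3 each, with adjusted p = 0.0606 by edgeR). Nek2, a mitotic kinase of the centrosome, stood at the other end with 107 CPM in WT and 163 CPM in KO (0.61, adjusted p = 0.0979, edgeR), and Top2a, the topoisomerase of dividing cells, was level at 1571 and 1576 CPM. These 3 genes were chosen after their values were seen. Stem and progenitor markers, 8 in all, had 0 calls and a median of -0.28.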
